A study of Mus musculus with 3 samples.

Results

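The ferritin and iron handling genes of MC3T3-E1 cells were examined as 10 genes, chosen by name, among the 15287 genes listed in the table of expression values. They were the ferritin subunits Fth1 and Ftl1, the ferritin turnover receptor Ncoa4, the uptake and release genes Tfrc, Slc11a2, Steap3 and Slc39a14, the exporter Slc40a1, and the iron regulatory proteins Aco1 and Ireb2. All 10 were listed, all 10 carried an iron-related term in the annotation columns of the table, and 8 carried the KEGG term ferroptosis, the exceptions being Aco1 and Ireb2. The 10 were chosen with earlier results of these data known, so their counts and medians describe them and test nothing. MC3T3-E1 is a preosteoblast line derived from mouse calvaria, of wild-type genotype here, and all 3 libraries were made from its total RNA. Cells of the CTL library had no treatment. Those of the Ti library met titanium particles (10 μg/cm²) for 24 h, and those of the Ti+Se-Met library met the same dose of particles and 5 μM selenomethionine over 24 h. The methods describe these treatments in an incomplete medium, and a single cell line with 1 library per condition limits the model. Without replicates no p-value could be given for any gene.

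Values were FPKM, fragments scaled to transcript length and to the fragments of the library, so levels can be compared between genes per length. Depth was not taken from counts but estimated from the smallest steps between low values, which gave 14350000 fragments (CTL), 14800000 (Ti) and 10000000 (Ti+Se-Met). Where 3 FPKM values are given in a row they are in the order CTL, Ti, Ti+Se-Met. Intervals are 95% intervals on the estimated fragments (Poisson for a level, exact conditional binomial for a fold). Counting error is all that they cover, so they set libraries apart and say nothing of the spread between cultures. The cultures had osteoblast transcripts, with 6 or 7 of 10 osteoblast markers above 1 FPKM in each library and a summed level between 5541 and 6933 FPKM. That sum held markers of opposite direction. Of the 7 osteoblast markers with at least 1 FPKM in a library, 5 were 1.5-fold or more lower and 1 higher in Ti than in CTL, with a median difference of -0.92 in log2(FPKM + 1). The collagen genes Col1a1 and Col1a2 stood at a fold of 0.266 and 0.372 and Runx2 at 0.640, whereas Spp1 stood at 2.94. Alpl stood at 0.133 with a wide interval (0.051 to 0.29). Its levels were low, 1.51 FPKM in CTL and 0.2 FPKM in Ti, from about 51 and 7 fragments. Of 7 macrophage markers 4 were found in the table and 2 were above 1 FPKM, with a sum between 27.75 and 32.5 FPKM. These also moved apart, Cd14 at 5.7, 16.56 and 14.81 FPKM and Lyz2 at 26.72, 14.76 and 12.42 FPKM (CTL, Ti, Ti+Se-Met), and Csf1r did not exceed 0.1 FPKM. Of 7 erythroid markers 3 were found, summing to at most 0.49 FPKM. The part of these marker differences in the iron gene results was not tested. Expression in bulk RNA cannot tell fewer cells of a type from less RNA per cell.

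Iron enters most cells bound to transferrin through the transferrin receptor, is reduced in the endosome by a STEAP reductase and leaves it through the divalent metal transporter. Iron that is not used is stored inside a ferritin shell built of heavy chains, which oxidise iron, and light chains, which help to form the mineral core. Ferritin is returned to the lysosome by the receptor NCOA4, and iron leaves the cell through ferroportin, the product of Slc40a1. When iron is low, the iron regulatory proteins bind a hairpin called the iron-responsive element. At the front of a message the bound protein blocks translation, as in ferritin, and behind the coding sequence it protects the message from decay, as in the transferrin receptor. Ferritin protein is thus set largely after transcription, whereas the values here are messenger RNA.

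The hairpins that place the members in this circuit are shown because the same proteins, encoded by Aco1 and Ireb2, read all of them. The pattern was a C, any 5 bases, the loop CAGTGN and 5 bases able to pair with the first 5 (G-T pairs allowed). It was searched on the sense strand in GENCODE M21 transcripts on GRCm38. It was found in 4 of the 10 members. Fth1, Ftl1 and Slc40a1 each had 1 match in the 5′ UTR, and Tfrc had 4 in its 3′ UTR. Of 20512 coding genes, 0.102% held the pattern in the 5′ UTR and 0.102% within the first 250 bases of a transcript, 0.527% held it in the 3′ UTR, and only Tfrc held more than 1 in a single 3′ UTR. The search asks for a perfect upper stem, so the absence of a match in Slc11a2 or another member says only that these letters were not found. The 30 bases around each match are given below as DNA letters, 5′ to 3′, with the 6 bases of the loop in capitals.
Fth1: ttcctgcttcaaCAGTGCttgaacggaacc
Ftl1: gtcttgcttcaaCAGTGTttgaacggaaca
Slc40a1: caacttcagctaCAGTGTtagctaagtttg
Tfrc site 1: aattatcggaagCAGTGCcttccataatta
Tfrc site 2: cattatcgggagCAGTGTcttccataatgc
Tfrc site 3: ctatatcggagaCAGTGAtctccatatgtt
Tfrc site 4: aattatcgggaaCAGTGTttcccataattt

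On GRCm38 the Fth1 element lies at chr19:9982732-9982761 on the plus strand, the Ftl1 element at chr7:45459778-45459807 on the minus strand and the Slc40a1 element at chr1:45925464-45925493 on the minus strand, all in 5′ UTR sequence. The Tfrc elements lie on the plus strand of chromosome 16, at chr16:32631219-32631248, chr16:32631598-32631627, chr16:32631663-32631692 and chr16:32631710-32631739. The first C of the pattern was base 93 of the Fth1 transcript, base 84 of the Ftl1 transcript and base 96 of the Slc40a1 transcript. These positions belong to the reference and not to the deposited values, which are per gene and carry no coordinates.

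The members spanned the whole range of expression. Fth1 was the most abundant gene of the table in all 3 libraries, and Ftl1 ranked 5 in CTL and 2 in both Ti-treated libraries. Together they made up 2.26% (CTL), 3.11% (Ti) and 2.86% (Ti+Se-Met) of the summed FPKM. The regulators, Ncoa4 and the uptake genes Slc11a2, Slc39a14 and Tfrc lay between 8.78 and 46.8 FPKM. Steap3 was below 3 FPKM and Slc40a1 below 1 FPKM in every library. In CTL the order was Fth1, Ftl1, Ncoa4, Aco1, Ireb2, Slc11a2, Slc39a14, Tfrc, Steap3 and Slc40a1, and the counting intervals of no pair of neighbours overlapped. In Ti, Ireb2 came after Tfrc, and Slc39a14 came before Slc11a2. There the intervals of Aco1 and Slc39a14, of Slc39a14 and Slc11a2, and of Tfrc and Ireb2 overlapped. In Ti+Se-Met the order was the same as in Ti, with overlaps between Slc39a14 and Slc11a2 and between Tfrc and Ireb2.

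**Figure D1:**
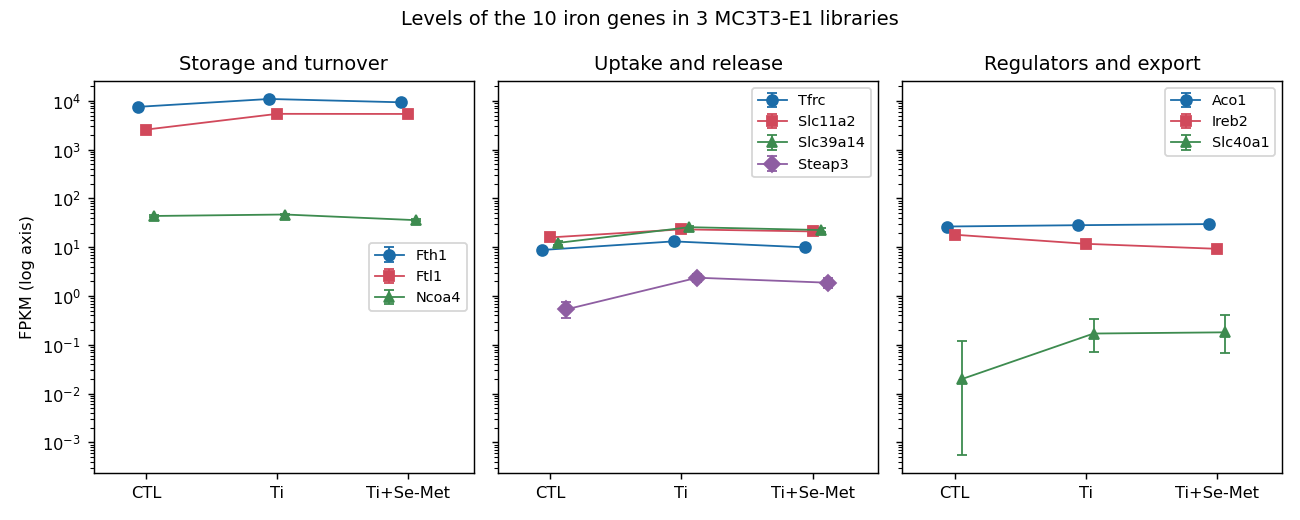
FPKM of the 10 genes (log axis) in the CTL, Ti and Ti+Se-Met libraries, 1 point per library, with bars for 95% Poisson counting intervals on the estimated fragments and lines joining the values of a gene. Fth1 and Ftl1 lie at 2575 FPKM or above throughout, Ireb2 goes down from CTL to Ti+Se-Met, and Slc40a1 rests on 1 to 8 estimated fragments.

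The question for the Ti library is how its levels of these genes differed from those in CTL. With 1 library per condition, an effect of the particles cannot be told from other differences between the cultures. Differences are given as the fold in FPKM and as the difference in log2(FPKM + 1), which is smaller for low genes. Of the 9 members that reached 1 FPKM in at least 1 library, 3 were at least 2-fold higher in Ti than in CTL on the log2(FPKM + 1) scale, namely Ftl1, Slc39a14 and Steap3, and 0 were 2-fold lower. Over the 11137 genes that passed the same filter, 3.63% were 2-fold higher and 3.64% 2-fold lower. Of the 9 differences 8 were above 0 and 1 below, beside 55.3% and 44.5% of all genes, and their median was 0.53, against 0.08 over all genes. Counting error alone was small for most genes, since the interval of the fold excluded 1 for 9 of the 10 members and for 75% of all genes. In Ti+Se-Met against CTL it did so for all 10, and for 69.1% of all genes, and in Ti+Se-Met against Ti for 6, all lower, and for 44.4% of all genes. The member counts against CTL include Slc40a1, which did not pass the filter, whereas these shares cover only genes that passed. Rescaling each library to the same sum (TPM) moved the median of all genes from 0.08 to -0.14, and that of Ti+Se-Met against CTL from 0.01 to -0.17. As TPM or with upper-quartile scaling only Steap3 of the members stayed past 2-fold on the log2 scale in Ti against CTL. Its plain fold was smaller as TPM, 3.81 against 4.47 as deposited. Under both scalings 6 members were above 0 and 3 below. The median of all genes was -0.14 as TPM and -0.04 with upper-quartile scaling. Every share of all genes given in these results is as deposited, and none was taken under another scaling.

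In Ti+Se-Met against CTL, 1 of the 9 members was 2-fold higher, Ftl1, and 0 were 2-fold lower, beside 2.64% and 3.32% of all genes. With a 1.5-fold threshold 3 were higher (Ftl1, Steap3 and Slc39a14) and 1 lower (Ireb2), beside 10.4% and 11.7% of all genes. Of the 9 differences 7 were above 0 and 2 below, beside 51% and 48.8% of all genes as deposited. As TPM 5 were above and 4 below, where the median of all genes was -0.17. As TPM different members were past 2-fold, since Ftl1 was at 0.87 on the log2 scale, Steap3 was higher at 1.09 and Ireb2 lower at -1.12. The plain fold of Steap3 was smaller as TPM, 3.07 against 3.53 as deposited. TPM values were larger than FPKM here while the pseudocount stayed at 1, which enlarges the log2 difference of a low gene such as Steap3. Between Ti+Se-Met and Ti, 0 members were 2-fold higher or lower, beside 0.162% and 0.0629% of all genes, and 0 were 1.5-fold higher or lower, beside 0.844% and 1.28%. There 8 of the 9 differences were below 0 and 1 above, against 61.1% and 38.5% of all genes, and the median was -0.23, against -0.06. Both of these comparisons share a library with the first, so their values are set side by side and not combined.

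Fth1, the ferritin heavy chain with the ferroxidase centre, was at 7537.34 FPKM (CTL), 10930 FPKM (Ti) and 9343.11 FPKM (Ti+Se-Met). It was highest in Ti and lowest in CTL. The fold was 1.45 in Ti against CTL (interval 1.44 to 1.46), 1.24 in Ti+Se-Met against CTL (1.23 to 1.25) and 0.855 in Ti+Se-Met against Ti (0.847 to 0.863). Each kept its direction as TPM, by median of ratios and by upper quartile, where the fold in Ti against CTL lay between 1.24 and 1.41.

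Ftl1, the ferritin light chain, was at 2575.47 FPKM (CTL), 5414.89 FPKM (Ti) and 5385.91 FPKM (Ti+Se-Met). Both Ti-treated libraries stood well above CTL and close to each other. The fold was 2.1 in Ti against CTL (interval 2.07 to 2.13) and 2.09 in Ti+Se-Met against CTL (2.06 to 2.12). As TPM these folds were 1.79 and 1.82. Ti+Se-Met stood to Ti at 0.995 (interval 0.983 to 1.01), and this value was above 1 under the 3 other scalings, at most 1.04. Ferritin genes have processed copies in the genome that can share reads. The one listed ferritin pseudogene, Ftl1-ps2, did not exceed 0.12 FPKM.

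The subunit balance therefore differed between libraries, and since it is a ratio within a library it does not depend on the scaling between libraries. Fth1 stood above Ftl1 by a factor of 2.93 in CTL (interval 2.89 to 2.97), 2.02 in Ti (2.0 to 2.04) and 1.73 in Ti+Se-Met (1.71 to 1.76), and none of these counting intervals overlapped. The summed ferritin level was 10112.81, 16344.89 and 14729.02 FPKM. That is 1.62-fold higher in Ti than in CTL as deposited and 1.38-fold as TPM.

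Ncoa4, the receptor that carries ferritin to the lysosome, was at 43.67 FPKM (CTL), 46.8 FPKM (Ti) and 35.81 FPKM (Ti+Se-Met). It was lowest in Ti+Se-Met, with a fold of 0.765 against Ti (interval 0.716 to 0.818) and 0.820 against CTL (0.766 to 0.878), and below 1 under every scaling. The fold of 1.07 in Ti against CTL (1.01 to 1.13) turned to 0.913 as TPM and 0.975 with upper-quartile scaling.

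**Figure D2:**
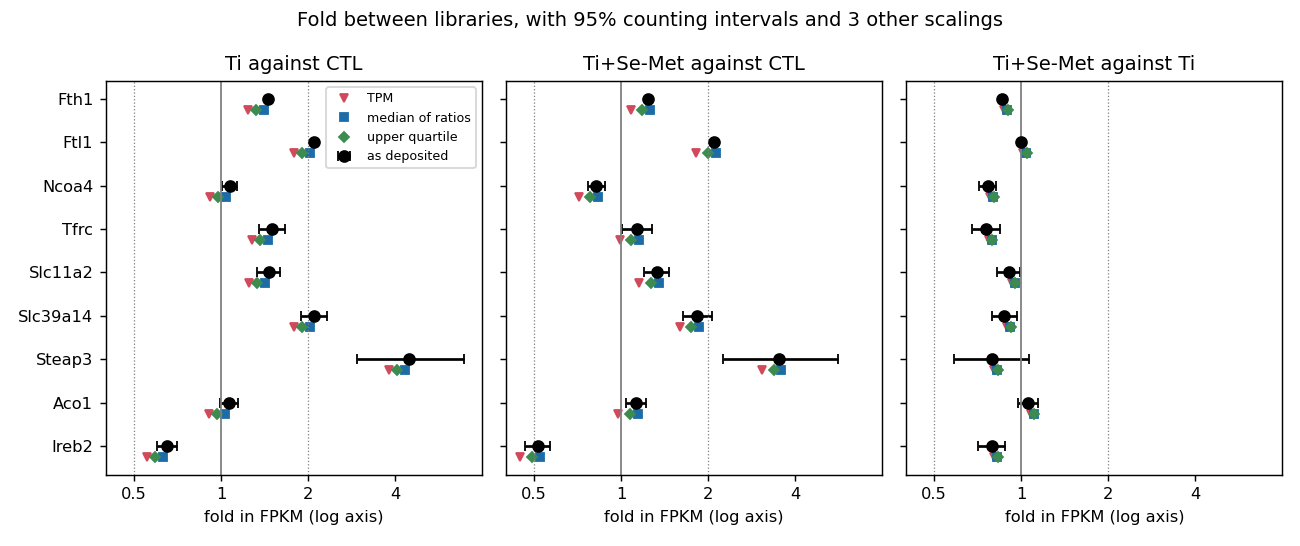
Fold in FPKM (log axis) of 9 genes for Ti against CTL, Ti+Se-Met against CTL and Ti+Se-Met against Ti, black points with 95% counting intervals as deposited and coloured points for TPM, upper-quartile and median-of-ratios scaling; the solid line marks 1 and the dotted lines 0.5 and 2. Slc40a1 is left out because its interval in Ti against CTL ran from 1.04 to 344. Ftl1, Slc39a14 and Steap3 lie to the right and Ireb2 to the left of 1 against CTL under all 4 scalings.

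Among the uptake genes, Tfrc, the transferrin receptor, was at 8.78 FPKM (CTL), 13.16 FPKM (Ti) and 9.95 FPKM (Ti+Se-Met). Ti was the high library, with a fold of 1.5 against CTL (interval 1.35 to 1.66), and Ti+Se-Met was lower than Ti by a fold of 0.756 (0.676 to 0.847). The fold of 1.13 in Ti+Se-Met against CTL (1.00 to 1.28) turned to 0.987 as TPM. Ferritin and Tfrc messages were thus both higher in Ti than in CTL.

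Slc11a2, the divalent metal transporter that moves iron out of the endosome, was at 15.88 FPKM (CTL), 23.23 FPKM (Ti) and 21.05 FPKM (Ti+Se-Met). Ti stood above CTL by a fold of 1.46 (interval 1.34 to 1.60), close to those of Fth1 and Tfrc, and 1.33 in Ti+Se-Met against CTL (1.20 to 1.46). The gene has transcripts with and without an iron-responsive element, which a value per gene does not separate. Slc39a14, a zinc transporter that also takes up iron not bound to transferrin, was at 12.27, 25.73 and 22.5 FPKM. It was lowest in CTL, with folds of 2.1 in Ti (1.89 to 2.33) and 1.83 in Ti+Se-Met (1.63 to 2.06) against CTL, and 1.79 and 1.60 as TPM.

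Steap3, the endosomal reductase that turns ferric into ferrous iron, was at 0.53 FPKM (CTL), 2.37 FPKM (Ti) and 1.87 FPKM (Ti+Se-Met), from about 29, 133 and 71 fragments. Its fold in Ti against CTL, 4.47, was the largest among the 9 members past the filter and had a wide interval (2.96 to 6.90). In Ti+Se-Met against CTL it was 3.53 (2.25 to 5.61), and relative to Ti the value was 0.789 (0.584 to 1.06), a difference not detectable at this depth. On the log2(FPKM + 1) scale the difference in Ti against CTL was 1.14, and it was 0.41 with 5 in place of 1 as the pseudocount.

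Slc40a1, which encodes the iron exporter ferroportin, was at 0.02 FPKM (CTL), 0.17 FPKM (Ti) and 0.18 FPKM (Ti+Se-Met), from about 1, 8 and 6 fragments. The ratio of Ti to CTL was 8.5 with a counting interval of 1.04 to 344, so its size is not known. It did not pass the filter on low values. The other listed genes of iron export and its control were mostly as low, and only 2 of 7 passed the filter. Of those, Cp, the ferroxidase ceruloplasmin, was at 15.27, 22.01 and 28.96 FPKM, highest in Ti+Se-Met. Its fold was 1.90 in Ti+Se-Met against CTL (1.74 to 2.07) and 1.32 against Ti (1.22 to 1.42). Neo1, a co-receptor in hepcidin control, was at 23.13, 22.87 and 24.07 FPKM.

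The iron regulatory proteins moved apart. Ireb2, which encodes IRP2, a protein that is degraded when iron is plentiful, was at 18.04 FPKM (CTL), 11.74 FPKM (Ti) and 9.27 FPKM (Ti+Se-Met). Among the 9 members past the filter only Ireb2 in Ti+Se-Met was at least 1.5-fold lower than CTL on the log2(FPKM + 1) scale. The fold was 0.651 in Ti against CTL (interval 0.599 to 0.706), 0.514 in Ti+Se-Met against CTL (0.464 to 0.568) and 0.790 in Ti+Se-Met against Ti (0.709 to 0.880). All were below 1 under the 4 scalings. Aco1, which encodes IRP1 and serves as the cytosolic aconitase when it holds an iron-sulfur cluster, was at 26.55, 28.25 and 29.8 FPKM. Its fold in Ti against CTL was 1.06 (0.989 to 1.14) and in Ti+Se-Met against CTL 1.12 (1.04 to 1.22), and as TPM these were 0.907 and 0.978. Aco1 stood above Ireb2 by a factor of 1.47 in CTL (1.37 to 1.59), 2.41 in Ti (2.22 to 2.61) and 3.22 in Ti+Se-Met (2.89 to 3.57), again with no overlap between the counting intervals. Fbxl5, the ubiquitin ligase subunit that marks IRP2 for decay, was at 27.13, 23.48 and 25.8 FPKM.

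**Figure D3:**
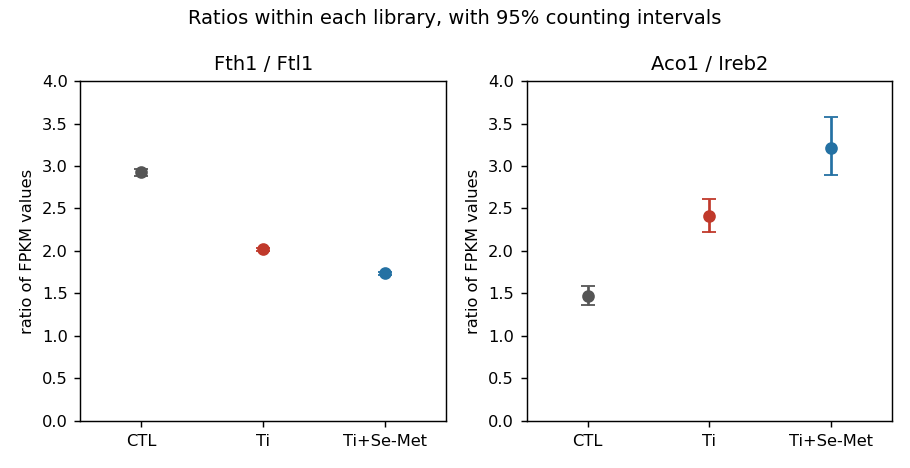
Ratio of FPKM values within each library for Fth1 over Ftl1 (left) and Aco1 over Ireb2 (right), 1 point per library, with 95% exact binomial counting intervals. The ferritin ratio is 2.93, 2.02 and 1.73 and the regulator ratio 1.47, 2.41 and 3.22 in CTL, Ti and Ti+Se-Met.

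The wider iron pathway was described by 10 lists with 116 gene names, of which 104 were listed and 89 passed the filter. Members and lists were chosen with earlier results of these data known, so the counts and medians above and below describe them and test nothing. Without the 10 members, 80 genes passed, and in Ti against CTL 7 of them were 2-fold higher and 1 lower, beside 3.63% and 3.64% of all genes. At 1.5-fold, 25 of the 80 were higher and 2 lower, beside 15.5% and 11.3% of all genes, and their median was 0.41, against 0.08. With the members, 10 were 2-fold higher and 1 lower as deposited, and 5 were higher and 2 lower as TPM, for which no share of all genes was taken. Of the 80 genes without the members, 3 were 2-fold higher and 0 lower in Ti+Se-Met against CTL, beside 2.64% and 3.32% of all genes, with a median of 0.28 against 0.01. In Ti+Se-Met against Ti 1 of the 80 was 2-fold lower, Hmox1, beside 0.0629% of all genes, and the median was -0.10 against -0.06.

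Of the 10 uptake and release genes past the filter, members included, 3 were 2-fold higher in Ti than in CTL, beside 3.63% of all genes. Of these Steap3 and Slc39a14 were already counted among the members. Steap1, of the same reductase family as Steap3, was at 14.33 FPKM (CTL), 42.88 FPKM (Ti) and 37.21 FPKM (Ti+Se-Met), with a fold of 2.99 in Ti against CTL (2.57 to 3.50). Scara5, a receptor that takes up ferritin, went the other way, at 151.97, 88.13 and 89.76 FPKM and a fold of 0.580 in Ti against CTL (0.559 to 0.602). Pcbp1, a chaperone that delivers iron to ferritin, was at 169.79, 256.73 and 247.25 FPKM.

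Heme carries much of a cell's iron, and heme oxygenase frees it. Of 8 genes of heme breakdown and transport, 2 were 2-fold higher in Ti than in CTL, beside 3.63% of all genes. Above 0 were 7, beside 55.3%, and the median was 0.65, against 0.08. Hmox1, the inducible heme oxygenase, was at 54.84, 203.87 and 96.48 FPKM, so that Ti was by far the highest library. Slc48a1, which moves heme out of lysosomes, was at 82.17, 171.59 and 121.99 FPKM. Blvrb, a biliverdin reductase, was at 36.32, 68.85 and 54.88 FPKM, and Flvcr1, described as a heme exporter, at 6.38, 11.46 and 8.01 FPKM. All 8 genes of this list were below 0 in Ti+Se-Met against Ti as deposited and as TPM (7 of 8 under the other scalings), beside 61.1% of all genes, with a median of -0.39. Hmox1 and Fth1 shared the order of the libraries (Ti highest, CTL lowest), and the drop in Ti+Se-Met against Ti was much larger for Hmox1, with a fold of 0.473 (0.445 to 0.503). Of the 12 genes of heme synthesis past the filter 0 were 2-fold higher or lower in Ti against CTL, beside 3.63% and 3.64% of all genes. At 1.5-fold 3 were higher, beside 15.5% of all genes. Of the 12, 7 were above 0 and 5 below, beside 55.3% and 44.5% of all genes. Fech, which inserts iron to make heme, was among the lower, at 38.73, 31.39 and 31.97 FPKM and a fold of 0.811 (0.772 to 0.851) in Ti against CTL. The higher included Tmem14c, a mitochondrial membrane protein of heme synthesis, at 39.01, 65.5 and 59.08 FPKM, and Urod, the uroporphyrinogen decarboxylase, at 20.51, 31.78 and 24.2 FPKM.

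Iron-sulfur clusters are made in mitochondria and finished in the cytosol. All 10 genes of cytosolic assembly were above 0 in Ti against CTL as deposited (9 of 10 as TPM), beside 55.3% of all genes, with a median of 0.61 against 0.08, and 2 were 2-fold higher, beside 3.63%. Ciapin1, an electron carrier of this pathway, was at 4.02, 11.4 and 6.43 FPKM, and Bola2, which works with glutaredoxin 3, at 14.84, 31.67 and 24.04 FPKM. The scaffold genes Nubp1 and Nubp2 were 1.90-fold and 1.99-fold higher in Ti than in CTL. Of 19 genes of mitochondrial import and assembly 0 were 2-fold higher or lower in Ti against CTL, beside 3.63% and 3.64% of all genes. At 1.5-fold 5 were higher, beside 15.5% of all genes, and the median was 0.24 against 0.08. There were 15 above and 4 below 0 as deposited, beside 55.3% and 44.5% of all genes. As TPM 11 were above and 8 below, where the median of all genes was -0.14. Fdxr, a ferredoxin reductase, was among the lower, at 16.33, 10.86 and 10.37 FPKM and a fold of 0.665 (0.571 to 0.775) in Ti against CTL. The higher included Hspa9, the mitochondrial chaperone, at 167.22, 298.05 and 262.1 FPKM, Glrx5 at 40.53, 69.84 and 50.37 FPKM, and Nfs1, the cysteine desulfurase, at 15.85, 27.27 and 22.34 FPKM. Fdx2, a ferredoxin of cluster assembly, was at 14.21, 22.76 and 31.29 FPKM and was the one gene of this list past 2-fold in Ti+Se-Met against CTL. In that comparison 2.64% of all genes were 2-fold higher and 3.32% 2-fold lower.

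Ferroptosis is a form of cell death driven by iron and lipid peroxides. Of 17 genes of its control past the filter, 16 were above 0 in Ti against CTL as deposited and 14 as TPM, beside 55.3% of all genes as deposited. Of the 17, 2 were 2-fold higher, beside 3.63%, and the median was 0.52, against 0.08. Chac1, which breaks down glutathione, was at 2.78, 9.25 and 7.69 FPKM, and Gss, the glutathione synthetase, at 12.9, 30.26 and 23.19 FPKM. Gpx4, the selenoprotein that removes lipid peroxides, was at 337.85, 654.14 and 569.18 FPKM, 1.94-fold higher in Ti than in CTL (1.86 to 2.01). Gclm, a subunit of glutamate-cysteine ligase, was at 20.8, 37.33 and 37.1 FPKM. In the KEGG term ferroptosis as the table gives it, which holds 8 of the members, 5 of 32 genes were 2-fold higher in Ti than in CTL and 0 lower, beside 3.63% and 3.64% of all genes, with a median of 0.54 against 0.08. These 5 include Ftl1, Steap3 and Slc39a14, already counted among the members. In the KEGG term mineral absorption 4 of 18 were higher and 0 lower, beside the same shares. The highest difference in each term was 1.88, the value of Hmox1. The terms thus repeat genes counted above, and their counts are not separate results.

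Among other messages known for an iron-responsive element, Cdc42bpa, a kinase gene with an element behind its coding sequence, was at 42.43, 20.47 and 24.62 FPKM, with a fold of 0.482 in Ti against CTL (0.461 to 0.505). Of the members with a match shown above, the 5′ UTR genes Fth1 and Ftl1 and the 3′ UTR gene Tfrc were all higher in Ti than in CTL under the 4 scalings.

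**Figure D4:**
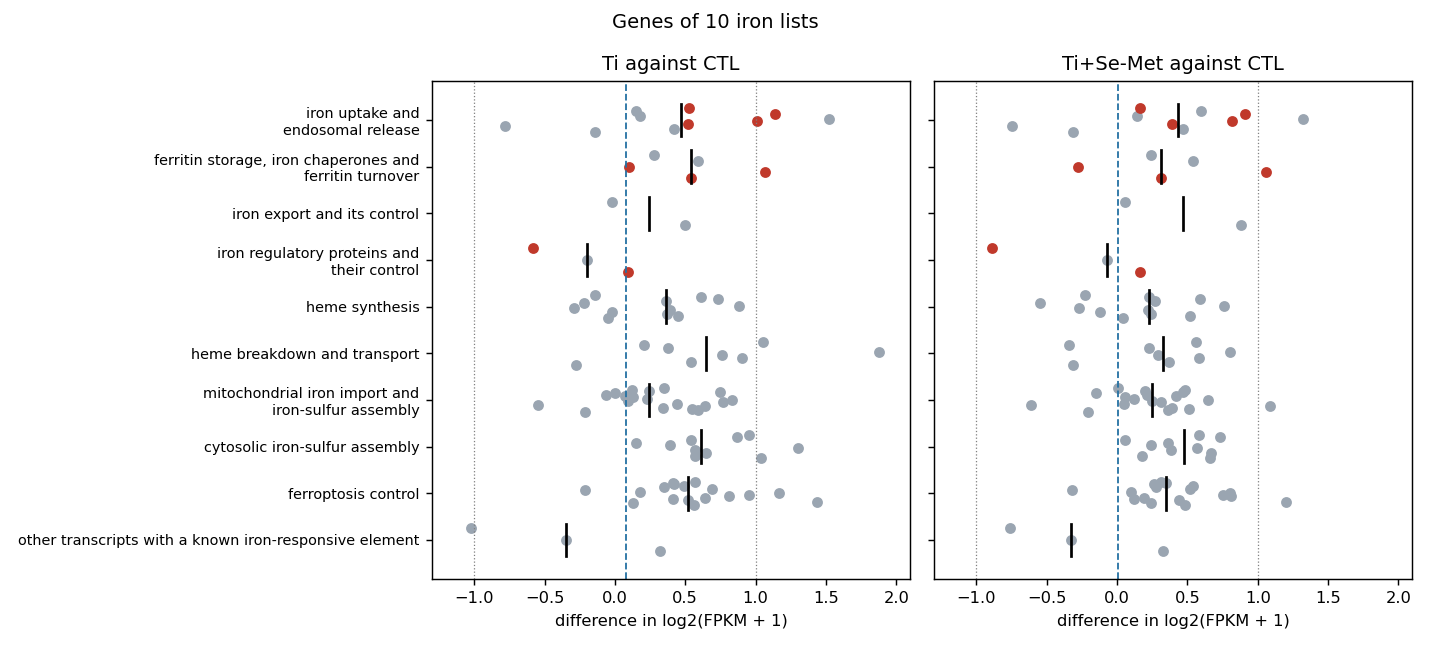
Difference in log2(FPKM + 1) for the genes of the 10 iron lists that passed the filter, in Ti against CTL (left) and Ti+Se-Met against CTL (right), 1 point per gene, red for the members and grey for other genes. Short black lines are the list medians, the dashed line is the median of all genes (0.08 and 0.01) and the dotted lines mark 2-fold. In Ti against CTL the medians of cytosolic iron-sulfur assembly and heme breakdown are 0.61 and 0.65, and that of the iron regulatory proteins is -0.20.

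Likeness of pattern was measured as the distance between the differences of Ti and of Ti+Se-Met against CTL, over 3 libraries. Among 8729 genes with a mean of at least 5 FPKM, those nearest to Fth1 were Tmem150a, Baz1a and Xpnpep1, within a distance of 0.0096, and those nearest to Tfrc were Eola1, Ctnnbl1 and Ube2z, within 0.0070. With 3 libraries such patterns are common, since 74 genes lay within 0.05 of Fth1 and 56 within 0.05 of Tfrc.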

How the data were processed

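RNA-seq of MC3T3-E1 cells gave 1 library each for CTL, Ti and Ti+Se-Met. Per the methods, the authors discarded adapter-containing and low-quality reads, aligned with HISAT2 and counted genes with HTSeq. FPKM values per gene were deposited. The submitters' processing notes also name StringTie, SAMtools and mm9. How FPKM was computed is not given in the sources used here. Columns were matched to libraries by title, with 0 left unmatched.

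In Python 3.11.15 (scipy 1.17.1, pandas 2.3.3, numpy 2.4.6), log2(FPKM + 1) was compared between libraries for the 11137 of 15287 genes with at least 1 FPKM in 1 library. Differences of 2-fold were counted, with no test. Depth was estimated from 453 genes with 1 transcript of 350 to 1000 bases, less 150 bases each, with GENCODE M21 lengths. Of 117, 92 and 88 low values 61.5%, 53.3% and 50.0% lay on whole fragments, against 18.0% by chance, and depths that did nearly as well ran from 13950000 to 14500000, 14600000 to 14900000 and 9900000 to 10650000. Steps were tested on simulated data. Members and lists were chosen with earlier results of these data known. Genes named are the members, Hmox1, and of each list up to 4 genes past 1.5-fold in any comparison by the largest difference and the gene of the highest mean, beside Fbxl5, Fech, Fdxr, Ftl1-ps2 and the cell type markers, named after their values were seen, and the 3 genes nearest to Fth1 and to Tfrc. Some genes that this rule names are not reported here. Scaling as TPM, by upper quartile or by median of ratios, thresholds of 1.5-fold and 4-fold, a mean of at least 5 FPKM or no filter, and pseudocounts of 0.1 and 5 were the alternatives.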

Additional observations from a re-analysis of the deposited data

How the results depend on the processing

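No paired analysis was possible because there was 1 library of each kind, and no library could be left out. For Ti against CTL, the 3 members past 2-fold became 2 by median of ratios and with a mean of at least 5 FPKM. They became 1 with a pseudocount of 5, as TPM and under the upper quartile, and 0 at 4-fold. The 1 was not the same gene throughout. It was Ftl1 with a pseudocount of 5, and Steap3 as TPM and under the upper quartile. The median of the 9 members past the filter, 0.53, became 0.41 with a pseudocount of 5, 0.31 as TPM and 0.40 under the upper quartile. Of the wider list, members included, 11 genes became 30 at 1.5-fold, 0 at 4-fold and 4 with a pseudocount of 5. They became 7 as TPM, 7 with upper-quartile scaling, and 10 by median of ratios and with a mean of at least 5 FPKM. For Ti+Se-Met against CTL, 1 member became 2 with a pseudocount of 0.1, 4 at 1.5-fold, 0 at 4-fold and 0 under the upper quartile. As TPM it became 2 (Steap3 higher and Ireb2 lower, with Ftl1 no longer past 2-fold), and the median of 0.31 became 0.11. In the wider list 4 genes became 22 at 1.5-fold, 0 at 4-fold and 2 with a pseudocount of 5. They became 6 with a pseudocount of 0.1 and 3 under the upper quartile. For Ti+Se-Met against Ti, 1 gene of the wider list became 0 at 4-fold and 2 at 1.5-fold. As TPM the pseudocount of 1 also weighs less on low genes, as described for Steap3. Other causes of the changes under other scalings were not tested.

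The log2 difference of Ncoa4 in Ti against CTL, 0.10, reversed to -0.13 as TPM and -0.04 under the upper quartile. Against CTL in Ti+Se-Met, Tfrc went from 0.16 to -0.02 and Aco1 from 0.16 to -0.03 as TPM. Of 150 alternative values of single members, 108 moved by less than 0.1 and the rest by at least 0.1. Of the rest, 4 changed sign although the interval of the fold as deposited excluded 1, and 38 did not. Members whose interval excluded 1 in Ti+Se-Met against Ti were 0 higher and 6 lower as deposited, and 2 higher and 4 lower with median-of-ratios or upper-quartile scaling. Depth limits Slc40a1 and Steap3 most, and the Ti+Se-Met library is the shallowest.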
